A study of Mus musculus with 2 samples.

Results

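The tissue described here is the part of an old mouse ovary section in which genes of the ovarian surface epithelium made up the largest share of the RNA. The beads of the array were gathered into square bins of 70 position units, about 5 bead spacings, and 884 bins with at least 500 counts were kept. These bins were ranked by the share of their counts that came from Lgals7, Krt19, Upk1b and Epcam, and the top 15%, 132 bins, are the member bins. The remaining 752 kept bins of the same section are the other bins. The members were thus chosen by the measured values of these 4 genes, which are given as a description and support nothing below. All results concern the other genes, the position of the bins, and a young section that the ranking did not use.

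The study recorded Slide-seq maps of whole ovaries from female C57BL6/J mice, a method that reads out RNA from a frozen section with barcoded beads at known places. The old section came from a female of about 14 months (replicate 1) and the young section from a female of 2 months (replicate 3), both untreated as far as the labels say. The protocol describes 4 sections of 10 µm from 2 females in each age cohort, cut where several oocytes lay in the plane, of which 1 per age is described here. In the old section 10267 beads carried 2348768 counts, a median of 125 each, and the kept bins held 97.6% of them. The young section gave 1306 kept bins, so the members are 132 of 2190 kept bins in all, and the sections shared 0 bead barcodes. With 1 section per age and bins of 1 section that are not replicates, no test was made. Differences are given as the ratio of the summed level in member bins to that in other bins, with levels in CPM, counts scaled to a common total. Each 95% interval is an exact conditional binomial one and covers counting error only, and the 4 quadrants of the section, split at the median bin position, show how far a ratio varied within it.

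The ovarian surface epithelium is a thin sheet of cells that covers the ovary and is continuous with the mesothelium, the lining of the body cavity. It carries simple-epithelial keratins together with mesothelial genes such as Wt1, Msln and Upk3b, lies on a basement membrane over the collagen-rich tunica, and is torn and repaired at each ovulation. Lgals7 encodes galectin-7, a carbohydrate-binding protein of epithelia, Krt19 a keratin of simple epithelia, Upk1b a uroplakin of the urothelium and mesothelium, and Epcam an epithelial adhesion molecule. In the RefSeq annotation of GRCm38.p6 (mm10) Lgals7 lies at chr7:28863796-28866285, Krt19 at chr11:100140810-100145926, Upk1b at chr16:38773182-38800203 and Epcam at chr17:87635979-87651127.

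The 4 genes made up 1.35% of the counts of the highest-ranked member, 0.219% of the median member and 0.0952% of the lowest. Just inside the bound lay shares of 0.0952%, 0.0962% and 0.102%, and just outside it 0.0936%, 0.0897% and 0.0894%, so the bound cuts through a continuous range. Lgals7 had 192 counts in 102 member bins and 48 counts in 46 other bins. Krt19 had 149 counts in member bins and 46 in other bins, Upk1b 116 and 22, and Epcam 113 and 29. All 4 genes were found in 22 members, 3 of them in 36, 2 in 38 and 1 in 36, and 27 members owed their place to 1 count. Member bins were shallower than other bins, with a median of 1351.5 against 2167 counts and 9 against 11 beads, and a similar mitochondrial share (1.41% against 1.33%). Together they held 215065 counts, 9.38% of the counts in kept bins.

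The member bins traced the outline of the section, although the ranking used no position. The rule did favour shallow bins, because it ranked by share and 1 count sufficed only in bins with few counts. Thus 27 members had 1 count, while 116 other bins with 1 count stayed out. How far bin depth shaped the positions was not tested. The outermost layer, kept bins that border the space outside the tissue, held 165 bins, and 79 of these were members, 59.8% of all members against 11.4% of other bins. Another 39 members lay in the second layer, so that 118 of 132 (89.4%) lay within 2 steps of the outside, compared with 23.7% of other bins. Only 14 of the 588 bins farther in were members. Of the members, 119 (90.2%) adjoined another member among the 8 surrounding bins, and 47.8% of the kept neighbours of a member were members, against 7.54% of the kept neighbours of other bins. The members formed 24 patches, 13 of them of 1 bin, and 5 patches of at least 10 bins held 92 members. The layer was not closed: 86 outermost bins were not members, and the share of members ran from 8.91% of bins in the quadrant of low x and low y to 22.7% where x and y were both high. One member, the second highest in rank, was a single bead of 549 counts away from the tissue, among 3 kept bins with no kept neighbour; without these 3 bins Lgals2 was 21.2-fold higher and Krt7 13.1-fold higher, close to the values below.

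**Figure D1:**
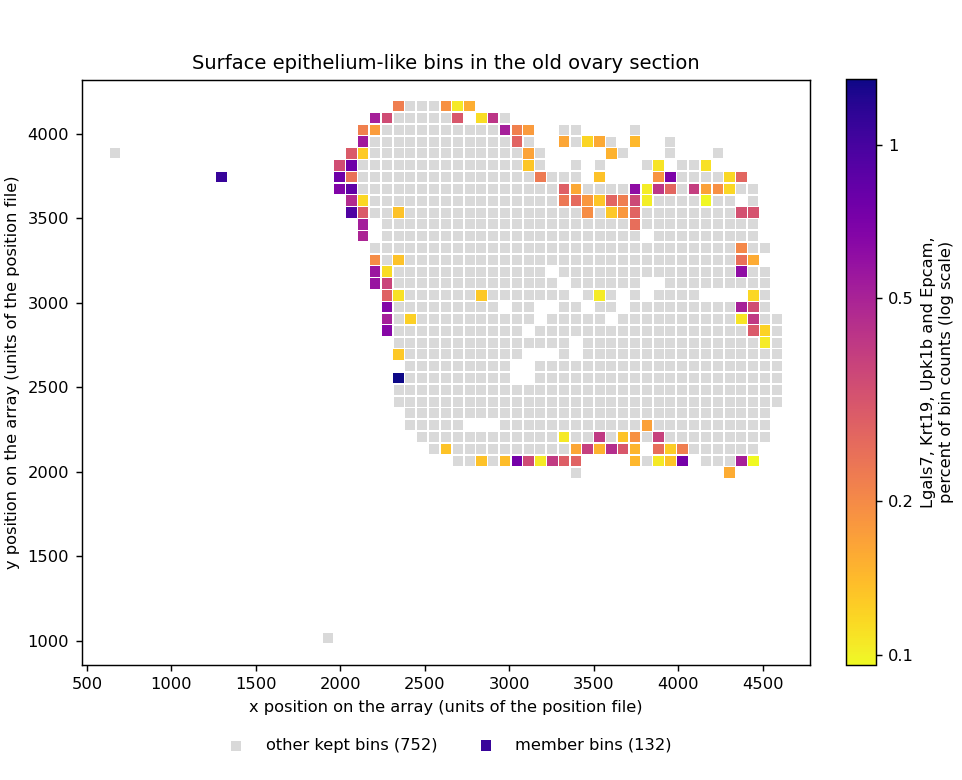
Position of the 884 kept bins of the old section on the array, in units of the position file. The 132 member bins are coloured by the share of their counts from Lgals7, Krt19, Upk1b and Epcam (log scale), and the 752 other bins are grey. Members line the edges of the tissue and a cleft at high x and high y, and 14 lie 3 or more steps inside.

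Outside the 4 choosing genes, 5088 genes had at least 100 counts over the kept bins. Of these, 694 (13.6%) were at least 1.5-fold higher in member bins and 897 (17.6%) at least 1.5-fold lower, with a median ratio of 0.997 over all genes. Among them, 526 of the higher genes and 513 of the lower genes had a counting interval that excluded 1. The ratio stood above 1 in 4 of 4 quadrants for 373 of the 694 higher genes and below 1 in 4 of 4 for 453 of the 897 lower genes. The quadrants make up the ratio by which these genes were called, so part of this agreement is built in. It is given as a description, without a share over all genes. At the upper end, 170 genes were at least 2-fold higher and 11 at least 5-fold higher. Because a bin holds several cells, fewer cells of a type and less RNA per cell cannot be told apart in any of these ratios.

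Members and others also differ in where they lie, so the comparison was repeated between the 79 members and 86 others of the outermost layer. There 604 of the 694 higher genes (87.0%) again stood above 1, compared with 48.0% of all genes tested, and 771 of the 897 lower genes (86.0%) stood below 1, compared with 52.0% of all. The outermost members are part of the members, so this is not a second sample.

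The 12 highest ratios were taken by a naming rule that leaves out mitochondrial, ribosomal protein and predicted genes. For Lgals2, Krt7, Krt18, Gbp2, Atp1b1 and Fabp3 the other bins held only 37, 45, 60, 62, 75 and 65 counts. These genes passed the minimum of 100 counts only through the member bins. A gene as sparse in the other bins could enter the ranking only if it was high in members. The highest ratio was that of Lgals2, a second galectin that is abundant in epithelia of the gut. It had 81 counts in 45 member bins and 37 counts in 32 other bins, 377 against 17.8 CPM, a ratio of 21.2 (14.2 to 32.1). The keratins Krt7 and Krt18, which build the filaments of simple epithelia, followed. Krt7 reached 293 CPM in members against 21.7 in others, a ratio of 13.5 (9.08 to 20.3), and Krt18 reached 386 against 28.9 CPM, a ratio of 13.4 (9.48 to 19.0). Because members were shallower, every bin was also thinned to 500 counts at random, in 1 draw. Krt7 was then found in 15.9% of members against 1.60% of others, and Lgals2 in 12.9% against 1.06%.

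Gbp2, a guanylate-binding protein induced by interferon, had 72 counts in members and 62 in others (ratio 11.2, 7.88 to 16.02). Atp1b1, a subunit of the sodium pump, was 8.89-fold higher (6.32 to 12.5), with 69 counts in members and 75 in others, but 2.85-fold after thinning (8.33% against 2.66% of bins). Crip1, a small LIM-domain protein, was found in 74 of 132 members and 136 of 752 others and was 8.23-fold higher (6.57 to 10.3). Ly6e, a membrane-anchored protein induced by interferon, was 7.83-fold higher (6.07 to 10.1), and C3, the central complement component, was 6.93-fold higher (5.76 to 8.32), with 953 against 138 CPM; after thinning C3 stood at 3.85. Gbp2 was found in 47 member bins, Ly6e in 66 and C3 in 68, and the largest count in any member bin was 12 for C3, 7 for Crip1, 6 for Gbp2 and 5 for Ly6e.

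Fabp3, a fatty-acid binding protein, was 6.10-fold higher (4.02 to 9.15). Wt1, a transcription factor of the mesothelium, was 5.24-fold higher (3.87 to 7.04), but its ratio was 1.63 where x and y were both high and between 6.12 and 8.59 in the other quadrants. After thinning Wt1 stood at 1.75, with a count in 8.33% of members and 4.65% of others, the lowest value of the 12 genes under any alternative tried. Cd55, which protects cells from complement, was 5.07-fold higher (3.68 to 6.94), and Aldh1a2, an enzyme that makes retinoic acid, was 4.86-fold higher (3.99 to 5.90). All 12 genes stood above 1 in 4 of 4 quadrants. In the outermost layer alone their ratios ran from 3.27 for Crip1 to 8.62 for Gbp2, and Aldh1a2 stood at 7.34 (4.44 to 12.8) there, while Lgals2 was at 5.19 (2.74 to 10.5) and Krt7 at 3.66 (1.80 to 7.90).

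**Figure D2:**
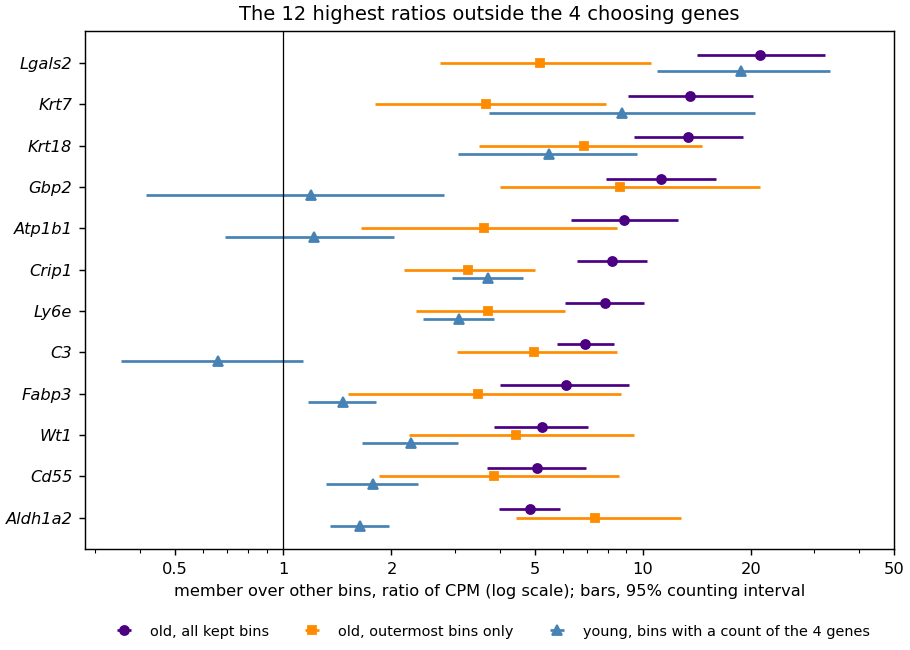
Ratio of the level in member bins to that in other bins (log scale) for the 12 highest genes, with 95% counting intervals, over all kept old bins (circles), over the outermost old bins only (squares), and in the young section for bins with a count of the 4 choosing genes (triangles). All 12 lie above 1 in the old section under both comparisons, whereas C3 lies at 0.658 in the young section and the intervals of Gbp2 and Atp1b1 span 1 there.

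The label was set beside genes of the surface epithelium and mesothelium that the ranking did not use. This list was chosen with earlier results of these data known, so it is no independent check. Of 23 such genes, 22 were listed in the old section. While the median ratio of all genes tested was 0.997, 22 of these 22 stood above 1. Of these genes, 6 had at least 100 counts over the kept bins, Krt7 and Krt18 largely through the member bins, where they had 63 and 83 counts against 45 and 60 in others, so no share of calls is read from them. Summed, the list was 4.08-fold higher in members (3.82 to 4.35), and 6.30-fold without Clu, its most abundant gene. Upk3b, a mesothelial uroplakin, had 41 counts in members and 18 in the far larger set of others, a ratio of 22.01 (12.4 to 40.7). Krt8, the partner of Krt18, had 34 and 32 counts (ratio 10.3), Msln, the mesothelial surface protein mesothelin, 21 and 15 (13.5), and Gpm6a, a membrane glycoprotein, 33 and 21 (15.2).

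Some members of this list were too sparse for more than counts. The E-cadherin gene Cdh1 had 8 counts in members and 3 in others, Muc16, which encodes a mucin of the coelomic lining, 8 and 2, and Slpi, an inhibitor of secreted proteases, 22 and 4. Rspo1, an activator of Wnt signalling, had 13 and 12 counts. Lgr5, a receptor of R-spondins known as a marker of progenitor cells in the surface epithelium, had 22 counts in members and 53 in others, a ratio of 4.01 (2.32 to 6.71). Its relative Lgr4 went the other way, with a ratio of 0.334 (0.234 to 0.463). Igfbp6, which binds insulin-like growth factors, was 3.80-fold higher (3.28 to 4.40), and Clu, a secreted chaperone, 2.29-fold higher (2.05 to 2.55). Genes of the oviduct epithelium, the other epithelium that may lie beside an ovary, had 0 counts in members and 13 in others. Only 3 of the 9 oviduct genes were found, and the interval of the ratio ran from 0 to 3.17. Their level in members therefore cannot be read. Genes of stratifying epithelium had 13 and 44 counts, a ratio of 2.86 (1.41 to 5.40).

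Junction and adhesion genes of epithelia were higher as a sum (1.67-fold, 1.48 to 1.87), but unevenly. Of 8 measured, 4 were at least 1.5-fold higher and 1 lower, against 13.6% and 17.6% of all genes. The higher ones were Spint2, a protease inhibitor of epithelial surfaces, at 3.04 (2.06 to 4.39), the tetraspanin Cd9 at 2.06, the junction molecule F11r at 1.98 and the membrane linker Ezr at 1.80. The tight-junction scaffold Tjp1 stood at 0.920 (0.591 to 1.38). Dsp, the plaque protein of desmosomes, was lower, with 3 counts in members and 125 in others, a ratio of 0.232 (0.0472 to 0.694).

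Complement genes were higher almost throughout. Of 8 measured genes of complement and its regulators, 7 were at least 1.5-fold higher, against 13.6% of all genes, and 0 were lower. They included the component C3, the protease C1s1 at 2.92 (2.28 to 3.69), and the membrane regulators Cd55 and Cd59a, the latter at 3.04 (1.99 to 4.53). The remaining gene, C1qa, a macrophage product, stood at 1.03 (0.735 to 1.41). The list as a whole was 2.26-fold higher (2.14 to 2.39) and 1.80-fold in the outermost layer (1.60 to 2.04). The stromal fibroblast markers that moved with it are given below, and their part in the complement ratio was not tested.

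Interferon-response genes summed to a ratio of 1.95 (1.78 to 2.13), with 4 of 8 measured genes at least 1.5-fold higher, against 13.6% of all genes. Beside Gbp2 the higher genes were the antiviral membrane proteins Ifitm3 at 2.81 (2.12 to 3.69) and Ifitm2 at 1.93 and the small protein Ifi27 at 1.73. The interferon signal transducer Stat2 stood at 1.19 (0.827 to 1.66). In the MHC class I pathway, which shows peptides to T cells, 5 of 8 genes were higher and 1 lower, against 13.6% and 17.6% of all genes. Among the higher were H2-D1 at 1.93 (1.65 to 2.24) and H2-K1 at 1.52 (1.28 to 1.81), while the light chain B2m stood at 1.46. MHC class II genes summed to 1.76 (1.47 to 2.08), with Cd74, the invariant chain, at 1.98 and H2-Eb1 at 2.08. After thinning, the class II ratio was 1.11 and the class I ratio 1.29.

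Markers of immune cells were measured beside these genes. Of 5 measured macrophage genes, 0 were higher and 0 lower, against 13.6% and 17.6% of all genes. The list summed to 0.914 (0.784 to 1.06), with Lyz2 at 0.676 and Ctss at 0.781, but to 1.34 in the outermost layer and 0.569 after thinning, so it has no settled direction here. Lymphocyte genes were sparse, with 25 counts in members and 110 in others for T and NK cells and 31 and 100 for B and plasma cells. The B and plasma ratio rested on the quadrant of high x and low y (17.8 there, 0.512 with that quadrant left out). Chemokine and cytokine genes summed to 1.06 (0.788 to 1.40) over 55 counts in members.

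Among the galectins, Lgals1 was 2.16-fold higher (1.73 to 2.67) and Lgals8 1.84-fold, whereas Lgals3, a galectin typical of macrophages, was lower at 0.435 (0.299 to 0.613). Retinoid genes summed to 1.95 (1.79 to 2.12). Within them Rarres2, which encodes chemerin, stood at 3.36 (2.78 to 4.04), but Aldh1a1 at 1.22 (1.04 to 1.42) and the alcohol dehydrogenase Adh1 at 0.554 (0.272 to 1.01). The metal-binding metallothioneins Mt1 and Mt2 were 1.78-fold (1.60 to 1.98) and 1.77-fold (1.55 to 2.02) higher, while the ferritin chains Fth1 and Ftl1 stood at 1.04 and 1.07. In the insulin-like growth factor system, Igf1 stood at 2.09 (1.36 to 3.11) and Igfbp5 at 1.86, and the receptor Igf1r at 0.635 (0.377 to 1.01). Among annexins and S100 proteins 6 of 12 were higher and 1 lower, against 13.6% and 17.6% of all genes. Anxa1 stood at 1.88 and Anxa3 at 2.56, but S100a6 at 0.654.

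The members also carried markers of the connective tissue below the epithelium. Stromal fibroblast genes summed to 1.78 (1.60 to 1.98), with 7 of 8 measured genes higher, against 13.6% of all genes. Among the higher were the proteoglycan Dcn at 2.48 (1.93 to 3.17) and the growth factor receptor Pdgfra at 2.31 (1.73 to 3.04). In the outermost layer alone the list stood at 1.21 (0.959 to 1.52), and Dcn at 1.01. Smooth muscle genes summed to 1.45 (1.33 to 1.58) over all bins and to 1.02 in the outermost layer. By contrast, the surface epithelium list kept a ratio of 3.31 (2.88 to 3.81) within that layer.

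Of 20 measured collagen and matrix genes, 6 were higher and 2 lower, against 13.6% and 17.6% of all genes, and the list summed to 1.06 over all bins and 0.808 in the outermost layer. Among them were Col6a2 at 2.51 (1.78 to 3.48), Col1a2 at 1.69 (1.49 to 1.91) and the cross-linking enzyme Loxl2 at 0.452 (0.325 to 0.614). Basement membrane genes were lower as a sum (0.752, 0.681 to 0.828), with 5 of 11 lower and 2 higher, against 17.6% and 13.6% of all genes. Col4a1 stood at 0.577 (0.449 to 0.731), Lamc1 at 0.520 and Lamb2 at 0.640, against Nid1 at 1.82 (1.27 to 2.55). Of the vascular markers, Kdr stood at 2.36 (1.39 to 3.84) and Flt1, with 2 counts in members and 106 in others, at 0.182. Pdpn, a marker of lymphatic endothelium and also of mesothelium, was 2.86-fold higher (2.04 to 3.94), and the other lymphatic genes together stood at 0.678.

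**Figure D3:**
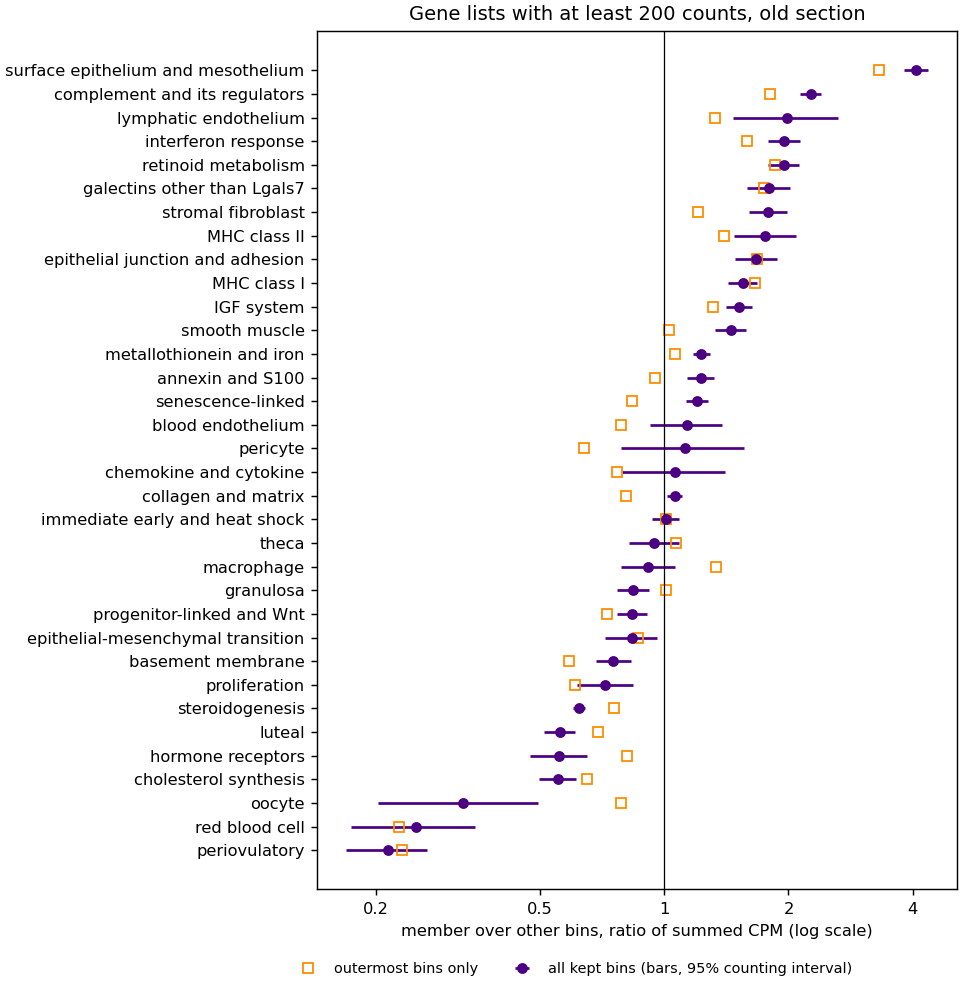
Ratio of the summed level in member bins to that in other bins (log scale) for gene lists with at least 200 counts, over all kept bins (circles with 95% counting intervals) and within the outermost layer (open squares). The surface epithelium and mesothelium list lies highest at 4.08 and at 3.31 within the layer, while stromal fibroblast genes move from 1.78 to 1.21 and smooth muscle genes from 1.45 to 1.02.

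Luteal, steroidogenesis and cholesterol synthesis genes were lower in members. Of 7 measured luteal genes 7 were at least 1.5-fold lower, against 17.6% of all genes, with a summed ratio of 0.557 (0.512 to 0.606). They include the prolactin receptor Prlr at 0.489 (0.389 to 0.607) and the lipoprotein receptor Scarb1 at 0.488. Steroidogenesis genes summed to 0.622 (0.602 to 0.643), with 5 of 8 lower, against 17.6% of all genes. Cyp11a1, the enzyme that begins steroid synthesis, stood at 0.604 (0.569 to 0.640) and the electron donors Fdx1 and Fdxr at 0.539 and 0.441. Cholesterol synthesis genes summed to 0.551 (0.496 to 0.610), with 9 of 14 lower, against the same 17.6%. In the outermost layer alone the ratios were closer to 1, at 0.689 for luteal genes, 0.754 for steroidogenesis and 0.648 for cholesterol synthesis.

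The size of these ratios differed over the section. The luteal ratio was 0.251 in the quadrant of low x and high y, 0.540 and 0.645 in the quadrants of low y, and 0.954 in that of high x and high y. With the quadrant of low x and high y left out, it was 0.927 for luteal genes, 0.876 for steroidogenesis, 0.839 for hormone receptors and 0.681 for cholesterol synthesis. The lower level of luteal and steroidogenic genes in members was thus strongest in that quadrant, but not confined to it. Luteal ratios in both quadrants of low y also stood well below 1. The steroidogenesis ratio was 0.316 where x was low and y high, and 0.926, 0.759 and 0.862 in the other quadrants. Values with 1 quadrant left out pool quadrants that differ in their share of members.

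Granulosa genes as a list had no settled direction. They summed to 0.839 (0.767 to 0.916) over all bins, to 1.01 in the outermost layer and to 1.12 after thinning. Of 9 measured, 5 were lower and 1 higher, against 17.6% and 13.6% of all genes. The lower ones included Inhba, an activin subunit, at 0.165 (0.0336 to 0.489), the nuclear receptor Nr5a2 at 0.212 (0.134 to 0.320) and the activin-binding follistatin, Fst, at 0.344 (0.219 to 0.516). Kctd14 was 3.60-fold higher (3.03 to 4.25) with 893 against 248 CPM, and 7.50-fold in the outermost layer. Foxl2, a defining granulosa gene, stood at 1.17 (0.762 to 1.74). The periovulatory list stood at 0.214 (0.169 to 0.266) and consisted mainly of Adamts1, a protease induced at ovulation, with 69 counts in members and 3469 in others. Its value was 1.53 where x and y were both high. Oocyte genes stood at 0.324 (0.202 to 0.495) on 22 counts in members.

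Of 9 measured proliferation genes 5 were lower, against 17.6% of all genes, and the list summed to 0.720 over all bins, 0.606 in the outermost layer and 0.963 after thinning. The lower genes included Mki67 at 0.328 (0.130 to 0.689), Top2a at 0.493 and the nucleotide-making enzyme Rrm2 at 0.213 (0.0685 to 0.504). Pcna, a clamp used in DNA replication and repair, was 1.88-fold higher (1.18 to 2.87). Cdkn1a, an inhibitor of the cell cycle, was lower at 0.411 (0.210 to 0.730). Red blood cell genes summed to 0.249 (0.174 to 0.347), with 4 of 4 measured genes lower, against 17.6% of all genes. Hba-a1 stood at 0.160 and Hbb-bs at 0.289. With the top 20% of bins as members the list stood at 0.668, no longer past 1.5-fold. Immediate early and heat shock genes, which respond to handling, summed to 1.01 (0.934 to 1.08).

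Further lists stood closer to 1. Of 7 measured progenitor-linked and Wnt genes 1 was higher, the Wnt receptor Fzd1 at 2.07 (1.53 to 2.75), and 2 were lower, Lgr4 and the secreted Wnt inhibitor Sfrp4 at 0.610 (0.534 to 0.693). These counts are near the shares of 13.6% and 17.6% over all genes. Wnt4, a ligand of the female gonad, stood at 1.30 (1.04 to 1.62). Of 5 measured genes linked to the epithelial-mesenchymal transition, 1 was higher and 2 were lower, against 13.6% and 17.6% of all genes. Zeb1 was higher at 1.64 (1.11 to 2.36). Zeb2 and Cdh2 were lower at 0.482 (0.320 to 0.699) and 0.437 (0.197 to 0.847), with Vim at 0.868 (0.699 to 1.07). The oestrogen receptor Esr1 stood at 1.98 (1.10 to 3.36) on 17 counts in members, while the gonadotrophin receptor Lhcgr stood at 0.416 (0.280 to 0.595). Theca genes summed to 0.946 (0.822 to 1.08) and pericyte genes to 1.12 (0.787 to 1.56).

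The 12 lowest ratios rested on 0 or 1 count in members. P4ha2, a collagen-modifying hydroxylase, and Lrp8, a lipoprotein receptor, had 0 counts in members and 108 and 106 in others. Set against a floor of 3 counts over the member bins, they were at least 3.73-fold and at least 3.66-fold lower, a one-sided limit; the wider intervals used for other genes have upper bounds of 0.336 and 0.342 for these ratios. The other 10 genes, among them Pde1a, D5Ertd579e, Masp1, Jam2, Hbb-bt, Kif21a, Nedd9, Zfp692 and Ttf1, each had 1 count in members and 99 to 139 in others. Their ratios ran from 0.0695 to 0.0976, with upper interval bounds between 0.394 and 0.557.

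The levels changed with distance from the members. The surface epithelium list fell from 6203 CPM in member bins to 1995 CPM in the 216 bins that adjoin them, then to 1455, 1303 and 1380 CPM at 2, 3 and 4 or more steps. Most of its change thus lay within 1 bin, while stromal fibroblast genes fell more slowly, from 1920 to 1687 CPM at 1 step and to 1024, 924 and 778 CPM beyond. Complement genes went from 6882 to 3930, 2946, 2841 and 2608 CPM, and interferon-response genes from 2781 to 1826 and 1350 CPM and then to 1314 and 1274 CPM.

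In the opposite direction, luteal genes stood at 2720 CPM in members and at 4134, 4746, 5120 and 5348 CPM with growing distance. Steroidogenesis genes went from 17065 to 30674 CPM and cholesterol synthesis genes from 1827 to 3954 CPM between members and bins at 4 or more steps. Red blood cell genes had their peak between, at 167, 468, 910 and 1055 CPM and then 376 CPM. Macrophage genes varied least of these, between 816 and 1140 CPM.

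**Figure D4:**
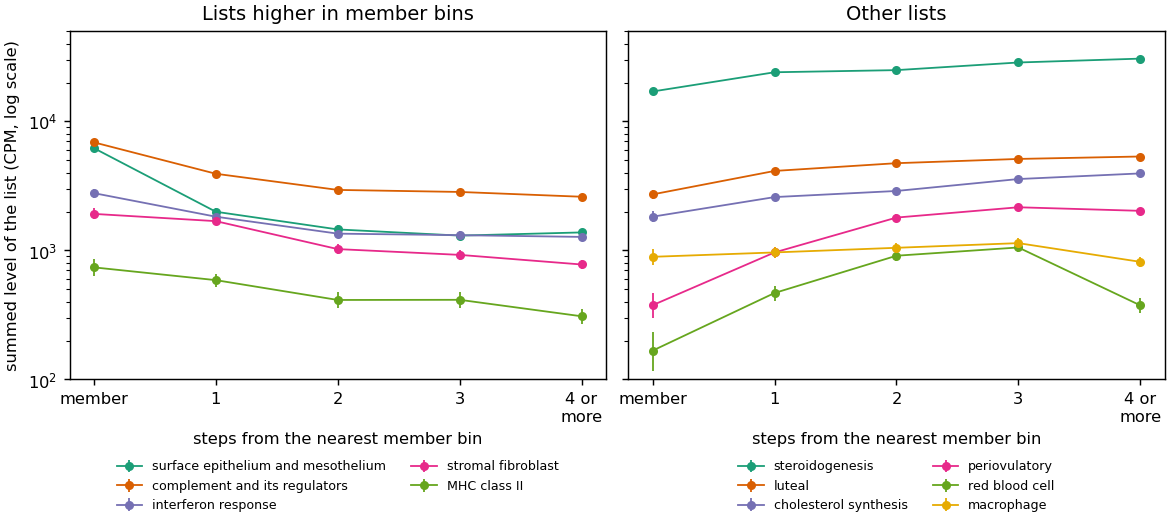
Summed level of gene lists (CPM, log scale) in member bins and in other bins by the number of bin steps to the nearest member, with 95% counting intervals. The surface epithelium list drops from 6203 to 1995 CPM over the first step, stromal fibroblast genes drop mainly at the second step, and luteal and steroidogenesis genes climb with distance.

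Levels by rank within the members are given as a description only, since the ranks are the values of the 4 choosing genes. The surface epithelium list, which leaves out the choosing genes, stood at 8767 CPM (8031 to 9553) in the 44 highest-ranked members, at 6621 in the middle 44 and at 3847 (3426 to 4307) in the lowest 44. The 44 bins just below the bound held 2986 CPM (2601 to 3411), and the 622 bins with no count of the 4 genes 1476 CPM. Complement genes fell from 7995 CPM in the highest to 6077 in the lowest 44 members and 5114 just below the bound. Stromal fibroblast genes ran the other way, from 1411 CPM (1125 to 1747) in the highest to 2395 CPM (2065 to 2763) in the lowest 44 members. Red blood cell genes stood at 118 CPM in the highest and 280 CPM in the lowest 44 members, and at 1230 CPM (988 to 1514) in the 44 bins just below the bound.

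The 5 large patches differed from each other. Patch 3, 20 bins at the left edge, had the highest surface epithelium level, 9847 CPM (8786 to 11001), with Lgals2 at 944 CPM, Aldh1a2 at 1384 CPM and Igfbp6 at 2360 CPM. Patch 5, 11 bins farther down the same edge, stood at 7971 CPM with C3 at 1355 CPM and 8 luteal counts in all. Patch 1, the largest with 26 bins along the lower edge, stood at 5654 CPM, with Lgals2 at 202 CPM. Patch 2, 22 bins along the cleft at high x and high y, stood at 5926 CPM and had 0 red blood cell counts. Patch 4, 13 bins at the upper edge, stood at 5125 CPM, with the least Krt18 (160 CPM on 3 counts) and C3 (214 CPM on 4 counts) of the 5. It also had the most smooth muscle, 4912 CPM (3959 to 6024) against 1594 to 2360 CPM in the other 4 patches, and the most MHC class II, 1495 CPM (993 to 2160).

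**Figure D5:**
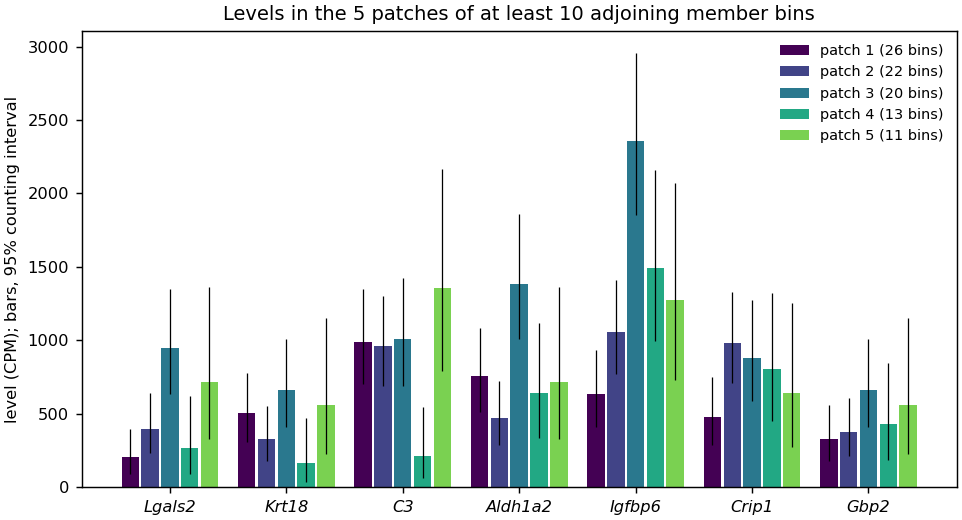
Level (CPM, with 95% counting intervals) of 7 genes in the 5 patches of at least 10 adjoining member bins, which hold 26, 22, 20, 13 and 11 bins. Igfbp6 reaches 2360 CPM in patch 3 against 631 CPM in patch 1, and C3 is lowest in patch 4 at 214 CPM.

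The young section served as a sample that the ranking did not use. The top 15% of its 1306 bins would be 195 bins, but only 134 bins held any count of the 4 genes, so these 134 bins were set against the other 1172; this choice was made after seeing the data. Of the 134 bins, 76 rest on 1 count. The 4 genes were at 104.6 CPM for Lgals7, 85.0 for Krt19, 60.2 for Upk1b and 61.9 for Epcam over the kept old bins and at 19.6, 9.81, 10.2 and 11.97 CPM over the kept young bins. The young bins also lay outward, with 53.7% within 2 steps of the outside against 22.4% of the other young bins. Among the 40 young bins at or above the old bound, 75.0% did.

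Of the old higher genes measured in the young section, 518 of 682 (76.0%) stood above 1 there, compared with 52.2% of all genes measured in both sections. Of the old lower genes, 633 of 846 (74.8%) stood below 1, compared with 47.8% of all. Sizes were smaller: 17.2% of the higher genes were again at least 1.5-fold higher, compared with 6.00% of all. In the 40 bins at or above the old bound these were 37.8% and 18.0%.

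Of the surface epithelium and mesothelium genes, 17 of 22 with counts stood above 1 in the young section, and 16 did at or above the old bound. Over all genes measured in both sections, with at least 100 counts, 52.2% stood above 1 in the 134 bins. Upk3b had 23 counts in the 134 bins and 8 in the rest, a ratio of 25.1 (10.9 to 65.0). Lgals2 stood at 18.7 (10.9 to 33.1), Msln at 11.4 (4.60 to 29.0), Krt7 at 8.74 (3.73 to 20.5), Rspo1 at 7.49 (3.76 to 14.8) and Krt18 at 5.50 (3.07 to 9.63). Crip1 stood at 3.71 (2.95 to 4.64), Ly6e at 3.08 (2.45 to 3.85) and Wt1 at 2.27 (1.65 to 3.06). Summed, the surface epithelium list stood at 0.965 in the young section with Clu, which was at 0.701 (0.658 to 0.746) there, and at 2.38 (2.19 to 2.59) without it. At or above the old bound it stood at 1.29 (1.16 to 1.43) with Clu and at 4.02 (3.47 to 4.64) without it.

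C3, Gbp2 and Atp1b1 had ratios near or below 1 in the young section. C3 had 14 counts in the 134 young bins and 186 in the rest, 26.8 against 40.7 CPM, a ratio of 0.658 (0.353 to 1.13), compared with 953 against 138 CPM and a ratio of 6.93 in the old section. Gbp2 stood at 1.19 (0.415 to 2.81) on 6 counts and Atp1b1 at 1.22 (0.687 to 2.03). Among related genes, Cd55 stood at 1.78 (1.32 to 2.37) and Ifitm3 at 1.62 (1.20 to 2.14) there. At or above the old bound, C3 stood at 1.20 (0.325 to 3.13) and Gbp2 at 3.76 (0.749 to 11.7). Lgr5 had 2 counts in the 134 young bins and 27 in the rest, a ratio of 0.647 (0.0746 to 2.58). The old and young ratios come from 1 section each, and their difference was not tested.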

How the data were processed

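The deposited tables of the authors hold whole-number counts per gene and bead, and a second table gives the position of each bead in an unstated unit. The build is mm10 per the submitters' processing notes. The aligner and counter are not stated in the sources used here, nor whether a count is a molecule or a read. Beads were summed into square bins and ranked as described above. Levels are CPM of a set of bins, and ratios carry exact conditional binomial (Clopper-Pearson) intervals, which cover counting error only; a count of 0 was set against a floor of 3 counts. A gene was called higher or lower by size, at least 1.5-fold, with at least 100 counts over the kept bins. Named genes were the 12 highest and 12 lowest ratios and, for each of 40 lists, the 3 highest, the 3 lowest and 2 of greatest abundance; a few more list genes were named after their values were seen, and some genes the rule names are not reported here. Members and lists were chosen with earlier results of these data known. Genes are named as the tables give them; 16356 of 18394 names matched the RefSeq table of GRCm38.p6. Thinning drew 500 counts from each bin. The calculation of ratios was also tested on simulated data. Python 3.11.15, numpy 2.4.6, scipy 1.17.1 and matplotlib 3.10.9 were used.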

Additional observations from a re-analysis of the deposited data

Results flagged for a closer look

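Some results pointed one way in the old section and the other way in the young section, where bins with a count of Lgals7, Krt19, Upk1b or Epcam stood in for the members; these differences were not tested, since each age had 1 section. For most of them the young value depended on which young bins were used or on 1 abundant gene. C3 stood at 6.93 among old bins and 0.658 among young bins (0.353 to 1.13, on 14 counts), but at 1.20 in the young bins at or above the old bound. Jam2 stood at 0.0826 and 1.08 (0.771 to 1.47) and Nedd9 at 0.0966 and 1.14 (0.679 to 1.83), each on 1 count in the old members; at or above the old bound they stood at 0.726 and 0.343, the same side as in the old section. The surface epithelium and mesothelium list stood at 4.08 and 0.965 (0.918 to 1.01), but the young value was 2.38 without Clu and 1.29 (1.16 to 1.43) at or above the old bound. The galectins other than Lgals7 stood at 1.79 and 0.963 (0.887 to 1.04), with a young value of 1.53 without Lgals3 and 1.58 (1.35 to 1.83) at or above the old bound. Retinoid metabolism genes stood at 1.95 and 0.961 (0.929 to 0.995), with a young value of 1.43 without Aldh1a1 and 1.06 (0.977 to 1.14) at or above the old bound. Mucosal defence genes stood at 3.02 and 0.521 (0.273 to 0.910), and at 0.776 (0.159 to 2.30) at or above the old bound. Sparse lists did so too: oviduct epithelium genes at 0 and 1.37, T, NK and innate lymphoid genes at 2.20 and 0.760, and B and plasma cell genes at 3.00 and 0.350.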

How the results depend on the processing

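The ratios were repeated under 19 alternatives that changed the bins, the ranking, the weights or the bins compared. Throughout, 12 of the 12 highest genes stayed at least 1.5-fold higher. The lowest genes stayed below 1 in 12 of 12 cases, with 9 of them past 1.5-fold throughout. These lowest genes were picked on 0 or 1 count in members and the alternatives reuse the same beads, so staying below 1 was largely built in. Among 24 lists past 1.5-fold, 20 kept their side. Only 7 of these 24 stayed past 1.5-fold under all 19: surface epithelium, stratifying epithelium, galectins, complement, mucosal defence, interferon response and periovulatory genes. Of these 7, mucosal defence and stratifying epithelium rested on 44 and 13 counts in members. They are not separate results throughout, because some lists share genes. Slpi and Muc16 are in both the surface epithelium and the mucosal defence list, and Clu is in both the surface epithelium and the complement list. The 1 measured gene of mucosal defence, Cp, was lower at 0.491. Among the lists that did not stay past 1.5-fold, luteal genes reached 0.927, steroidogenesis 0.876, stromal fibroblast genes 1.21, MHC class II 1.11 and red blood cell genes 0.668. The 4 lists that changed side had 22 to 31 counts in members, although stratifying epithelium kept its side on 13. B and plasma cell genes turned to 0.758 with the top 10% of bins, 0.739 with bins of at least 300 counts, 0.408 when ranked by Lgals7 alone, 0.393 after thinning and 0.512 without the quadrant of high x and low y. Oocyte genes turned to 2.06 when ranked by Lgals7 alone, mast cell genes to 0.855 among outermost bins, and T, NK and innate lymphoid genes to 0.949 after thinning. The number of higher genes moved from 694 to 1067 among outermost bins. With genes of at least 20 counts it was 2095 higher and 2417 lower, and with at least 300 counts 171 and 274, as more or fewer genes were tested. The share of members adjoining a member moved from 90.2% to 82.2% with bins of 50 units, 83.3% when ranked without Lgals7 and 82.6% when ranked by Lgals7 alone. The share of old calls on the same side in the young section, 75.3%, was 79.3% with at least 300 counts per gene. The minimum of 20 or 300 counts, members with at least 2 counts of the 4 genes, and leaving out bins with no kept neighbour were added after seeing the data. No paired analysis was possible because each age has 1 section and the replicate numbers are not shared. Most list ratios of sparse cell types cannot be read at this depth.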
